A study of Mus musculus with 12 samples.

Results

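Chemokines are small secreted proteins that steer the migration of leukocytes and other cells through receptors of the G-protein-coupled family, and their genes and those of their receptors are described here in spontaneous liver cancer of the mouse. The genes came from a list of 35, made up of 17 CC ligands, 12 CXC and CX3C ligands and 6 receptors. Of these, 34 were measured by a probe set that names a single gene, out of 18193 such genes on the array. The probe set of Ccl19 names several genes, so no value is given for it. Where a gene had more than 1 probe set, the brightest over the 12 arrays stood for it.

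The livers came from B6C3F1 mice, hybrids of C57BL/6 dams and C3H sires, of the 2-year bioassays run by the National Toxicology Program. One group held 6 hepatocellular carcinomas (HCC) that arose spontaneously and the other 6 normal livers, all from untreated 2-year-old animals, and each tissue sample gave 1 single-colour Affymetrix array. Nothing in the labels gives a sex, a batch, a pairing or whether the tumours came from separate animals, so p-values measure only the spread between these samples, which may in part be technical. Levels are quantile normalized log2(intensity + 16), and the pseudocount of 16 sets a floor of 4, so that differences of dim genes are understated. The levels of different probe sets cannot be set against each other.

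The ligands are named after the spacing of their first cysteines (CC, CXC, CX3C). In the liver they are made by hepatocytes, Kupffer cells, endothelium, stellate cells and incoming leukocytes. Neutrophils follow Cxcl1, Cxcl2 and Cxcl5 through Cxcr2. Activated T and NK cells follow the interferon-induced Cxcl9, Cxcl10 and Cxcl11 through Cxcr3, and monocytes follow Ccl2, Ccl7 and Ccl12 through Ccr2. Cxcl12, which acts on Cxcr4, is a constitutive ligand that retains cells in tissues.

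The arrays shared 1 value of the 2% trimmed mean intensity, and between 14.2% and 18.1% of their probe sets were dimmer than 16. Hepatocyte markers were bright in every liver, with a mean log2 level of 9 genes from 15.39 to 15.49 in normal livers and 14.85 to 15.33 in HCC. Normal 1, normal 3, HCC 1 and HCC 4 lacked signal of Uty, Kdm5d and Eif2s3y, which are Y-linked, and had Xist at 11.79 to 12.70, while the other 4 livers of each group had Y-linked signal and Xist at 5.12 to 7.56. In the 4 arrays without it the Y-linked genes read 4.09 to 5.58, called the range of absent transcripts below. That range rests on 3 genes, and Xist read up to 7.56 in livers with Y-linked signal. A level above the range therefore does not show that a transcript was present. HCC 6 stood apart from the other arrays: it held the highest of the 12 values in 13.6% of all genes, against 6.2% to 11.5% for each other array. For the members, differences are therefore also given without HCC 6 where leaving it out moved them by over 1.5 times or turned their sign. For genes outside the members, differences are given with HCC 6 only. Only 11 of the 34 members lay above the median gene in mean level, and Ccl11, Ccl20, Ccl22 and Ccr7 had both group means within the range of absent Y-linked transcripts. Ccl3, Ccl7, Ccl12, Cxcl5 and Cxcr2 had only their normal mean there, and Ccl24 and Cxcl15 only their HCC mean.

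Tumours had more of the neutrophil attractant Cxcl1, of the interferon-induced Cxcl9 and Cxcl10 and of the T cell attractant Ccl5, and less of Cxcl12 and of the epithelial ligand Ccl28. These 6 of 34 members (17.6%) passed limma's test at a Benjamini-Hochberg adjusted p under 0.05 over all genes, 4 higher and 2 lower in HCC. Over all 18193 genes 13.7% passed, 6.48% higher and 7.24% lower, so the share of members called lay close to that of genes at large. The median difference was 0.53 over the members and -0.044 over all genes on the log2 scale, and 26 members had a positive and 8 a negative difference. Without HCC 6 the median over the members was 0.30. No receptor among the 6 measured passed, whereas 3 of 12 CXC and CX3C ligands were called higher and 1 lower, and 1 of 16 CC ligands was called higher and 1 lower. In bulk tissue, a change in the share of a cell type and a change of RNA per cell cannot be told apart.

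**Figure D1:**
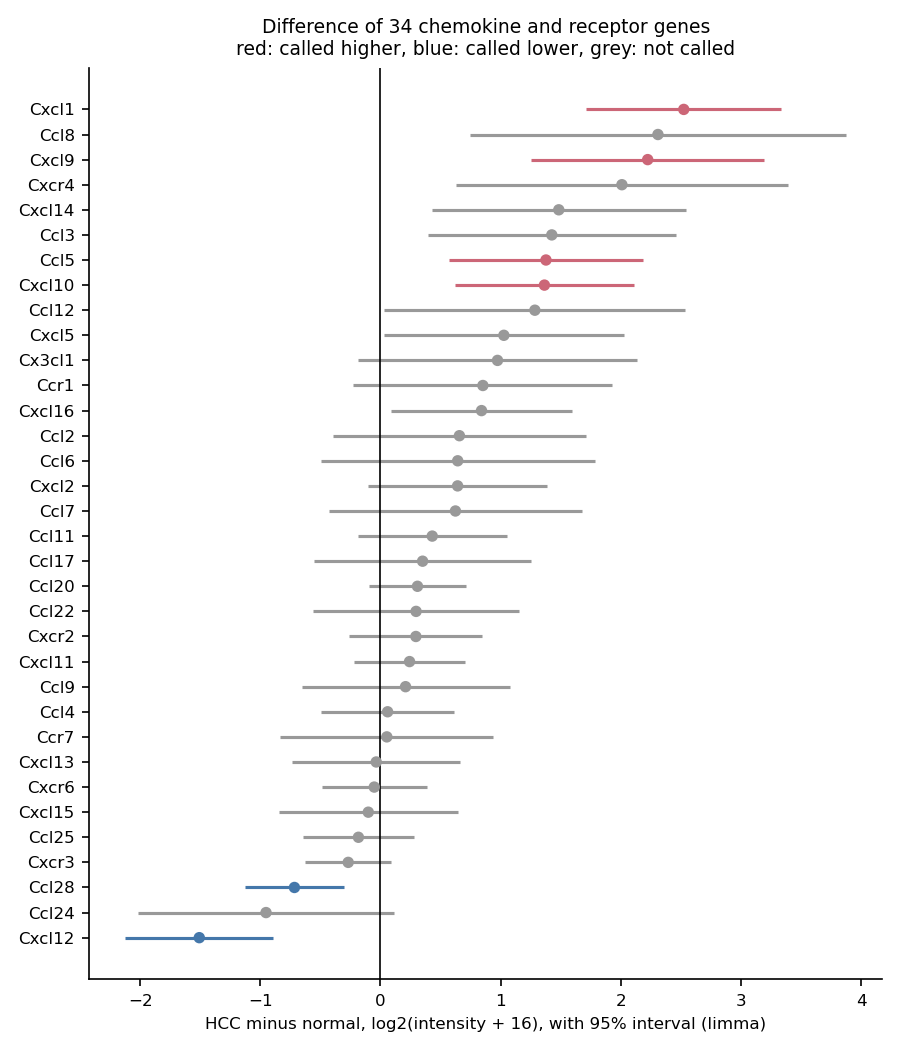
Difference between 6 HCC and 6 normal livers for each of the 34 genes, as HCC minus normal on the log2(intensity + 16) scale, with the 95% interval of the limma fit as a line. Cxcl1 and Cxcl9 lie farthest to the right among the 4 genes called higher, and Cxcl12 lies at the far left; Ccl8 and Cxcr4 have large differences with wide intervals and were not called.

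The sequences upstream of the start site were read for the genes that passed, because Cxcl1, Cxcl9 and Cxcl10 moved in one direction from 2 places on chromosome 5. RefSeq promoters (GRCm38.p6) were at hand for 25 of the 35 listed genes, Ccl5 not among them, and the 250 bases before the start were searched on both strands. A kappa B like motif (GGG, any 2 bases, then TTTCC or TTCCC) was found in 7 of the 25, Ccl9, Ccl19, Ccl20, Cxcl1, Cxcl2, Cxcl9 and Cxcl10, and in 3.25% of 27025 genes with a promoter in the table. The core of the interferon response element (GAAA, any 2 bases, GAAA) was found in Ccl19, Cxcl10 and Cxcl14 and in 3.46% of all genes, and the STAT core (TTC, any 3 bases, GAA) in Ccl17 and Cxcl14 and in 8.13%. The letters of a TATA box (TATAAA, sought on the strand of the gene and not capitalised) were found in 9 of the 25 and in 8.94%. They were counted at any place in the window, from 6 bases before the start in Cx3cl1 to 195 in Cxcl9. A match therefore need not be a working TATA box. The 3 genes that rose and Cxcl12, the larger fall, are shown 5′ to 3′ on the strand of the gene, with matches in capitals. The capitals mark kappa B like matches, except that the first run in Cxcl10 is the interferon response element core.
Cxcl1, chr5:90890995-90891244, plus strand: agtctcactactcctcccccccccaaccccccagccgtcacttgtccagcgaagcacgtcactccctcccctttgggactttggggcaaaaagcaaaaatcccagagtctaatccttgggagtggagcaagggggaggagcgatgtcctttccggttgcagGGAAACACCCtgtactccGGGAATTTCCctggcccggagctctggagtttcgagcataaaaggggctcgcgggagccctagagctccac
Cxcl9, chr5:92328080-92328329, minus strand: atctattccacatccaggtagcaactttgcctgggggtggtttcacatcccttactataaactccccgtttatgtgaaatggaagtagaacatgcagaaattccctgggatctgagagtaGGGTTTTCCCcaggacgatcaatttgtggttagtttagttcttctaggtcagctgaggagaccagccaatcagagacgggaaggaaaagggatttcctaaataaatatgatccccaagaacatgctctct
Cxcl10, chr5:92348890-92349139, minus strand: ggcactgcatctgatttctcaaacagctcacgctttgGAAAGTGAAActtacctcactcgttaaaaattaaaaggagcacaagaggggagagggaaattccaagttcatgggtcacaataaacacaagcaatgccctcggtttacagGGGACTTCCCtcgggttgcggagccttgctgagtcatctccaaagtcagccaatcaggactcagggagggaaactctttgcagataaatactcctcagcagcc
Cxcl12, chr6:117168285-117168534, plus strand: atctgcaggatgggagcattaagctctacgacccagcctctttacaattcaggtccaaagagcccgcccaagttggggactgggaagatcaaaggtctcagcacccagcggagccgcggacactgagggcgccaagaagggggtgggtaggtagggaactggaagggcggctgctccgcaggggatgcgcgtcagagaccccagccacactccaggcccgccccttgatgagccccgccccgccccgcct
Cxcl12 and Ccl28, the 2 genes that fell, held none of these motifs in this window. Neither did Ccl3, Ccl6, Ccl22, Ccr1, Cxcr2, Cxcr3 and Cxcr6, which were not called. In Ccl20 both matches overlap. Ccl9, Ccl20 and Cxcl2 hold a kappa B like match too and were not called, at differences of 0.21, 0.31 and 0.64. A match is a run of letters and was not tested for binding in these livers.

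Cxcl1, the main neutrophil-attracting CXC ligand of mouse tissues, read 11.56, 12.19, 12.17, 11.69, 13.02 and 11.85 in HCC 1 to HCC 6, with 8.99, 9.25 and 11.27 as the lowest, median and highest normal liver. All 6 HCC lay above all 6 normal livers, although normal 2, at 11.27, came within 0.29 of the lowest tumour. Cxcl1 rose by 2.52 ± 0.37 (SE) on the log2 scale, or 5.75-fold (limma adjusted p = 0.00114), with means of 9.55 ± 0.85 (normal) and 12.08 ± 0.52 (HCC; SD, n = 6 each). Its brightest probe set, read here, ends in _s_at, a suffix that Affymetrix gives to probe sets that can match further transcripts. Its other 2 probe sets, the second of a kind that Affymetrix marks as open to cross-hybridisation, rose as well, by 2.16 ± 0.38 and 0.81 ± 0.23 (limma over all probe sets, adjusted p = 0.00416 and 0.0452). The rise was 2.52 within the livers with Y-linked signal and 2.53 within those without.

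The sister ligands of Cxcl1, which share its receptor, did not pass the test. Cxcl2 differed by 0.64 ± 0.34 (SE, limma adjusted p = 0.246) and Cxcl5 by 1.03 ± 0.46 (adjusted p = 0.164). Cxcl5 read 6.25, 5.57, 5.84, 4.71, 5.41 and 7.78 in HCC 1 to HCC 6 and 4.19, 4.88 and 5.65 in the lowest, median and highest normal liver. HCC 6 was the highest in both genes, at 7.90 for Cxcl2, where the next tumour and the highest normal liver both stood at 6.45. Without HCC 6 the differences were 0.33 for Cxcl2 and 0.65 for Cxcl5. Cxcl15, the lung-type ligand that lies between Cxcl5 and Cxcl1 on chromosome 5, differed by -0.10 ± 0.34 (adjusted p = 0.885). Cxcr2, the receptor of these ligands on neutrophils, was dim, with means of 5.51 (normal) and 5.80 (HCC), and differed by 0.29 ± 0.26 (95% interval -0.26 to 0.85, adjusted p = 0.497).

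Cxcl9, an interferon-gamma-induced ligand of Cxcr3, read 10.97, 9.69, 11.19, 11.10, 10.68 and 13.22 in HCC 1 to HCC 6 and 8.50, 8.94 and 9.46 in the lowest, median and highest normal liver. Again no tumour overlapped with normal liver, HCC 6 stood 2.03 above the next tumour and HCC 2 was the lowest. Cxcl9 rose by 2.22 ± 0.45 (SE, limma adjusted p = 0.00668), with means of 8.92 ± 0.33 (normal) and 11.14 ± 1.16 (HCC; SD, n = 6 each), which is 4.67-fold. Without HCC 6 it rose by 1.82 (limma adjusted p = 0.00193). Its second probe set rose by 1.21 ± 0.28 (limma over all probe sets, adjusted p = 0.0184).

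Cxcl10 acts on the same receptor and lies next to Cxcl9 on chromosome 5. It read 9.60, 8.14, 9.26, 9.04, 8.13 and 10.28 in HCC 1 to HCC 6 and 7.22, 7.69 and 8.14 in the lowest, median and highest normal liver. HCC 6 was again the highest, HCC 2 lay 0.0009 above the highest normal liver, and HCC 5 lay just below it, so that 5 of 6 tumours exceeded every normal liver. The difference was 1.36 ± 0.34 (SE, limma adjusted p = 0.02), a 2.57-fold rise, and 1.12 without HCC 6 (adjusted p = 0.0304). Cxcl11, the remaining ligand of Cxcr3 and a neighbour of both, differed by 0.24 ± 0.21 (95% interval -0.22 to 0.71, adjusted p = 0.507), with 3 tumours above the normal range and HCC 5 below it. The dimmer probe set of Cxcl11 differed by 0.61 ± 0.27 without passing the test (limma over all probe sets, adjusted p = 0.193). Cxcr3 itself had means of 7.41 (normal) and 7.15 (HCC), and 4 of 6 tumours lay below the lowest normal liver without passing the test (-0.27 ± 0.17, SE, adjusted p = 0.318).

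**Figure D2:**
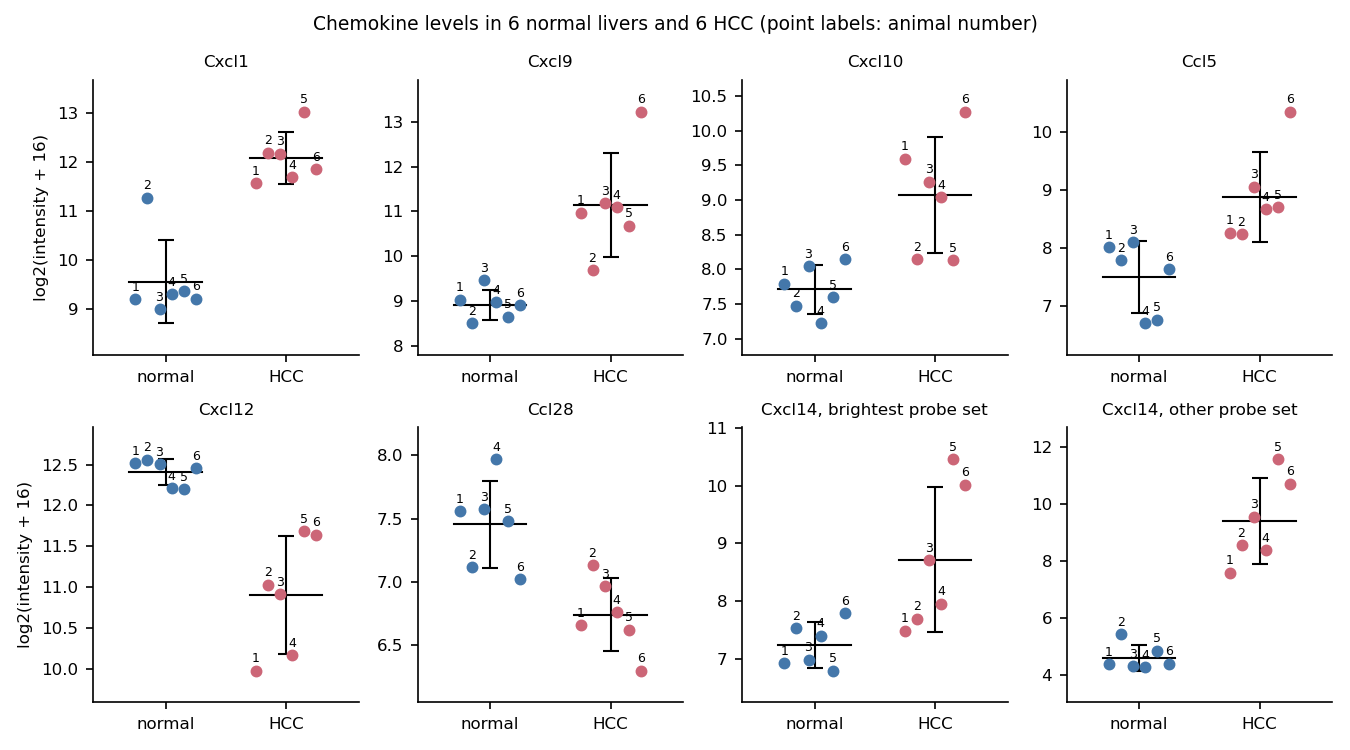
Levels as log2(intensity + 16) in each of 6 normal livers and 6 HCC for the 6 genes past the test and for both probe sets of Cxcl14; numbers beside points are sample numbers, horizontal lines the group means and bars the SD. Cxcl1, Cxcl9, Ccl5 and Cxcl12 separate the groups completely, and the second probe set of Cxcl14 separates them by more than the brightest one.

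Ccl5, a ligand of Ccr1 made by T and NK cells and other leukocytes, read 8.27, 8.24, 9.05, 8.67, 8.71 and 10.34 in HCC 1 to HCC 6 and 6.70, 7.71 and 8.11 in the lowest, median and highest normal liver. Every tumour exceeded every normal liver, by as little as 0.14 for the closest pair, and HCC 6 was the highest. The difference of 1.38 ± 0.37 (SE, limma adjusted p = 0.0283, 2.60-fold) lost its call without normal 4 (adjusted p = 0.0634), normal 5 (0.0631) or HCC 3 (0.0527), with a range of 0.0126 to 0.0634 over all alternatives. It was 1.86 within the livers with Y-linked signal and 0.41 within the 2 HCC and 2 normal livers without. Complete separation upward, seen in Cxcl1, Cxcl9 and Ccl5, held for 3 of 34 members and 4.25% of all genes. Downward it held for Cxcl12, 1 of 34 members, and for 4.5% of all genes.

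Cxcl12, the stromal retention ligand, read 9.97, 11.03, 10.91, 10.17, 11.68 and 11.64 in HCC 1 to HCC 6. The lowest, median and highest normal liver stood at 12.20, 12.48 and 12.56, so the normal livers hardly varied and all tumours lay below them. Cxcl12 fell by 1.51 on the log2 scale, with an SE of 0.28 (limma adjusted p = 0.0047), with means of 12.41 ± 0.16 (normal) and 10.90 ± 0.72 (HCC; SD, n = 6 each), or 2.84-fold. HCC 1, HCC 4 and no other liver lay 2 or more below the lowest normal one, a step found in 1 of 34 members and 2.26% of all genes. They are the 2 tumours without Y-linked signal. The difference was -2.44 within the livers without that signal and -1.04 within those with it. A second bright probe set fell by 1.85 (limma over all probe sets, adjusted p = 0.00887) and the dimmest one differed by -0.85 ± 0.34 (adjusted p = 0.149).

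Cxcr4, the receptor of Cxcl12, showed the opposite sign and a wide scatter. It read 7.32, 7.71, 6.02, 9.24, 7.65 and 10.28 in HCC 1 to HCC 6, and 4.37, 6.39 and 6.62 in the lowest, median and highest normal liver. All tumours but HCC 3 lay above the normal range, with HCC 6 and HCC 4 at least 2 above it. The difference of 2.01 ± 0.64 (95% interval 0.62 to 3.39) missed the threshold over all genes (limma adjusted p = 0.0551) and passed it without HCC 3 (adjusted p = 0.0205). It also passed with the deposited scaling (0.0482), and the adjusted p ran from 0.0205 to 0.111 over all alternatives. Without HCC 6 the difference was 1.55. The atypical receptor Ackr3, which binds and removes Cxcl12, differed by 1.78 ± 0.74 (adjusted p = 0.131). Ackr3 lay above the highest normal liver, at 7.12, in 4 tumours. It was at 10.76 in HCC 6 and reached 9.95 in the other tumours.

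Ccl28, a ligand made by mucosal and secretory epithelia, read 6.66, 7.13, 6.96, 6.76, 6.62 and 6.29 in HCC 1 to HCC 6 and 7.02, 7.52 and 7.97 in the lowest, median and highest normal liver. Except for HCC 2, the tumours lay below every normal liver, and HCC 6 was the lowest. The difference of -0.72 ± 0.19 (SE, limma adjusted p = 0.0253) lost its call without normal 3 (adjusted p = 0.0529), normal 4 (0.0531), normal 5 (0.0509) or HCC 6 (0.0514), with a range of 0.0181 to 0.349 over all alternatives. The probe sets of Ccl28 did not share a sign. One of the dimmer ones differed by -0.71 ± 0.51 and the other by 0.51 ± 0.28 (limma over all probe sets, adjusted p = 0.445 and 0.301). With the mean of the 3 probe sets the difference was -0.31 (adjusted p = 0.349).

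Cxcl14, a chemokine of epithelia and stroma, gave different answers on its 2 probe sets. The brightest read 7.49, 7.69, 8.71, 7.95, 10.46 and 10.02 in HCC 1 to HCC 6 and 6.79, 7.19 and 7.79 in the lowest, median and highest normal liver, with HCC 5 and HCC 6 far above the rest and HCC 1 and HCC 2 inside the normal range. Its difference was 1.48 ± 0.49 (SE, limma adjusted p = 0.0622), not past the test, though it passed without HCC 1 (0.035) or HCC 2 (0.0409). The other probe set, whose mean over the 12 arrays was lower, read 7.59, 8.57, 9.56, 8.39, 11.59 and 10.72 in HCC 1 to HCC 6 and 4.28 and 5.44 as the lowest and highest normal liver. All 6 tumours lay at least 2.15 above the highest normal liver there. It rose by 4.79 ± 0.58 (limma over all probe sets, adjusted p = 0.000425), with means of 4.61 ± 0.46 (normal, close to the floor) and 9.40 ± 1.52 (HCC; SD, n = 6 each). Both probe sets put HCC 5 first, HCC 6 second and HCC 1 last among the tumours. With the mean of both, Cxcl14 passed (difference 3.14, adjusted p = 0.00224). The choice of probe set therefore decided this call.

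Over all 54 probe sets of the 34 genes, 11 passed, or 20.4% against 8.33% of 45037 probe sets. Of the 54, 8 were higher, against 4.38% of all probe sets, and 3 lower, against 3.95%. The 11 include all 3 probe sets of Cxcl1 and both of Cxcl9, and probe sets of 1 gene are not independent. The 45037 also include 9160 probe sets with no gene symbol. By gene the shares were closer, 17.6% of members against 13.7% of all genes. Of 15 members with more than 1 probe set, 11 had probe sets that shared a sign. Those that did not were Ccl28, Cx3cl1, Cxcl13 and Cxcr6, and in the last 3 no probe set passed.

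The monocyte attractant Ccl2 lies in a cluster of CC ligands on chromosome 11, in the order Ccl2, Ccl7, Ccl11, Ccl12 and Ccl8. None of the 5 passed, and all had positive differences, from 0.43 for Ccl11 to 2.31 for Ccl8. Ccl8 read 7.75, 5.88, 8.31, 9.10, 8.12 and 11.43 in HCC 1 to HCC 6 and 5.14, 6.37 and 6.98 in the lowest, median and highest normal liver. HCC 6 thus stood 4.45 above the highest normal liver, HCC 4 stood 2.12 above it, and HCC 2 lay within the normal range. The difference of 2.31 ± 0.72 (95% interval 0.74 to 3.87, limma adjusted p = 0.0516) just missed the threshold, and it passed without HCC 2 (0.0113) or with the deposited scaling (0.0459), with a range of 0.0113 to 0.103 over all alternatives.

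Ccl12, a ligand of Ccr2, read 4.21, 5.25, 5.0, 6.79, 5.95 and 8.47 in HCC 1 to HCC 6 against at most 5.36 in normal liver. HCC 6 and HCC 4 were the highest, and HCC 1 lay below all normal livers. Its difference was 1.28 ± 0.58 (SE, limma adjusted p = 0.164). Ccl2, the classical monocyte attractant, differed by 0.66 ± 0.48 (adjusted p = 0.413). It read 6.04, 7.49, 6.52, 7.34, 8.13 and 9.30 in HCC 1 to HCC 6 and 5.66, 6.94 and 7.30 in the lowest, median and highest normal liver, and HCC 6 was the highest and HCC 1 the lowest tumour. Ccl7, another ligand of Ccr2, read 6.33, 5.31, 6.61, 5.93, 4.33 and 8.05 in HCC 1 to HCC 6 and 4.75, 5.56 and 5.86 in the lowest, median and highest normal liver. HCC 6 and HCC 5 were the extremes of all 12 livers, and the difference was 0.62 ± 0.49 (adjusted p = 0.443). Ccl11, the eosinophil attractant eotaxin, stayed between 4.31 and 5.83. Without HCC 6 the differences of Ccl2, Ccl7, Ccl11, Ccl12 and Ccl8 were 0.29, 0.23, 0.26, 0.78 and 1.70.

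A second group on chromosome 11 runs in the order Ccl5, Ccl9, Ccl6, Ccl3 and Ccl4, and Ccl5 alone of these passed. Ccl3, an inflammatory ligand of Ccr1, read 5.49, 5.87, 7.04, 6.60, 5.06 and 8.31 in HCC 1 to HCC 6 and 4.33, 4.92 and 5.78 in the lowest, median and highest normal liver. HCC 6, HCC 3 and HCC 4 led, while HCC 1 and HCC 5 were within the normal range. The difference was 1.42 ± 0.48 (SE, limma adjusted p = 0.0662, or 0.03 without HCC 5). Ccl4, its closest relative, differed by 0.059 ± 0.25 (95% interval -0.49 to 0.61, adjusted p = 0.913), and no tumour exceeded the highest normal liver.

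Ccl6 and Ccl9, rodent ligands of Ccr1 that myeloid cells make, had scattered values. Ccl6 read 8.51, 7.75, 9.47, 9.20, 9.69 and 11.59 in HCC 1 to HCC 6, with HCC 6 2.15 above the highest normal liver, 9.44, and HCC 2 below the lowest, 7.82 (0.64 ± 0.53, SE, limma adjusted p = 0.468). Ccl9 read 11.33, 12.92, 14.30, 12.08, 13.23 and 12.13 in HCC 1 to HCC 6 and 12.12, 12.51 and 12.72 in the lowest, median and highest normal liver. Here HCC 3 was the highest and HCC 1 the lowest, HCC 6 lay inside the normal range, and the group difference was 0.21 ± 0.40 (adjusted p = 0.783). Without HCC 6 the difference of Ccl6 was 0.20 and that of Ccl9 0.31. The SD of Ccl9 was 1.04 among tumours and 0.22 among normal livers. Both probe sets of Ccl9 gave nearly the same difference, 0.21 and 0.19. Ccr1, their receptor, read 6.39, 6.63, 6.34, 7.05, 7.14 and 9.39 in HCC 1 to HCC 6 and 4.98, 6.46 and 6.89 in the lowest, median and highest normal liver. HCC 6 was 2.50 above that range, HCC 4 and HCC 5 exceeded it by at most 0.25, and the difference of 0.85 ± 0.50 (adjusted p = 0.288) became 0.40 without HCC 6.

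The membrane-bound ligands and the ligands of lymphoid traffic gave no call. Cxcl16, the ligand of Cxcr6, was above every normal liver in 5 of 6 tumours, reached 10.19 in HCC 6 and differed by 0.84 ± 0.35 (SE, limma adjusted p = 0.131, or 0.0474 without HCC 1). Cx3cl1, or fractalkine, was above every normal liver in 5 tumours and below every one in HCC 2, at 4.94. Its difference of 0.97 ± 0.54 (adjusted p = 0.26) passed without HCC 2 (0.0184), but its 3 dimmer probe sets lay between -0.26 and 0.15. Cxcl13, which attracts B cells through Cxcr5, differed by -0.035 ± 0.32 (adjusted p = 0.962), with 2 tumours above and 3 below the normal range.

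Cxcr6, found on liver-resident lymphocytes, differed by -0.052 ± 0.20 (95% interval -0.49 to 0.39, limma adjusted p = 0.902) and kept all tumours within the normal range. Ccr7, the homing receptor of naive T cells and mature dendritic cells, differed by 0.053 ± 0.41 (adjusted p = 0.954). Ccl17 and Ccl22, ligands of Ccr4 that flank Cx3cl1 on chromosome 8, differed by 0.35 and 0.30, and Ccl20, the ligand of Ccr6, by 0.31 (adjusted p from 0.312 to 0.682). Ccl24, an eosinophil attractant, differed by -0.95 ± 0.49 (adjusted p = 0.227), and 3 tumours lay below the lowest normal liver. Ccl25, a ligand of Ccr9, differed by -0.18 ± 0.21 (adjusted p = 0.631). Without HCC 6 the difference was 0.068 for Ccl22, 0.56 for Cxcl16, 0.17 for Ccr7 and -0.11 for Cxcr6, and it turned its sign for Cxcl13 (0.076) and Cxcl15 (0.056).

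**Figure D3:**
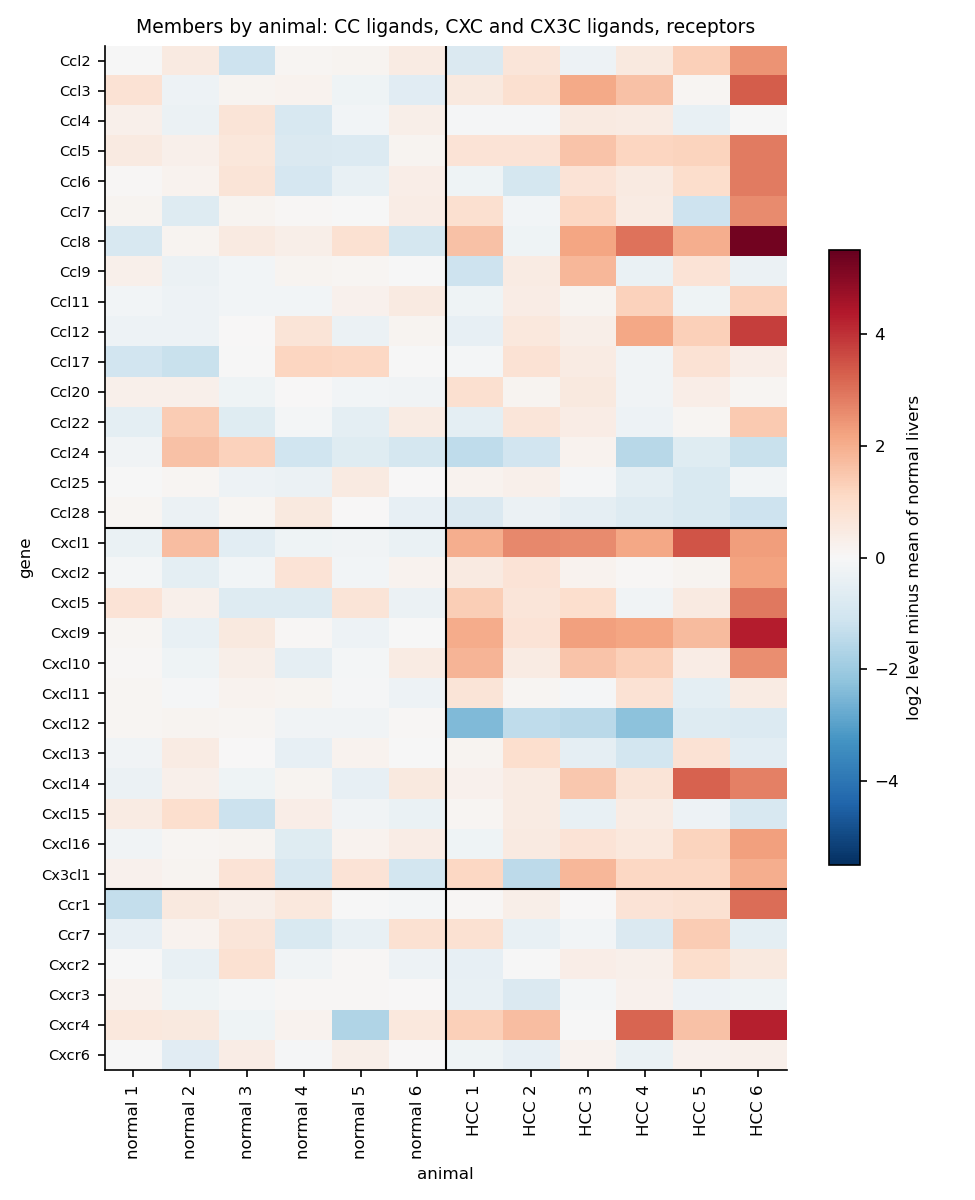
Level of each of the 34 genes in each sample minus the mean of the 6 normal livers, on the log2 scale, with CC ligands at the top, CXC and CX3C ligands in the middle and receptors at the bottom. The column of HCC 6 holds the largest values for Ccl8, Cxcl9, Cxcr4 and Ccl12, Cxcl1 is raised in every tumour, and Cxcl12 is lower in every tumour.

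Tumour by tumour, HCC 6 carried most of the extreme values. It held the highest of the 12 values for 17 of 34 members, against 1 to 4 members for each of the other 5 tumours and 13.6% of all genes for HCC 6. In 13 of the 34 members at least 1 tumour lay 2 or more above the highest normal liver, compared with 2.86% of all genes, and HCC 6 did so in all 13. The 13 were Ccl2, Ccl3, Ccl5, Ccl6, Ccl7, Ccl8, Ccl12, Cxcl5, Cxcl9, Cxcl10, Cxcl14, Ccr1 and Cxcr4. Among HCC 1 to HCC 5 the same held for 3 members, Ccl8 and Cxcr4 in HCC 4 and Cxcl14 in HCC 5, and for 1.79% of all genes. These steps were counted without a test. With a pseudocount of 64 HCC 6 made such a step in 8 members, with no share over all genes to set beside it.

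From HCC 1 to HCC 6 the median of the members relative to the normal mean was 0.12, 0.41, 0.38, 0.46, 0.64 and 1.71, so HCC 6 led and HCC 1 was the least raised. HCC 6 exceeded the highest normal liver in 20 members (58.8%, against 24.8% of all genes), HCC 4 and HCC 5 in 17 each (50%, against 21.7% and 20.8%), and HCC 2 in 10 (29.4%, against 20.1%). The members did not single out the same tumour throughout. Cxcl1 and Cxcl14 were highest in HCC 5, Ccl9 in HCC 3, Ccl20 in HCC 1, Cxcl13 in HCC 2 and Cxcl11 in HCC 4.

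**Figure D4:**
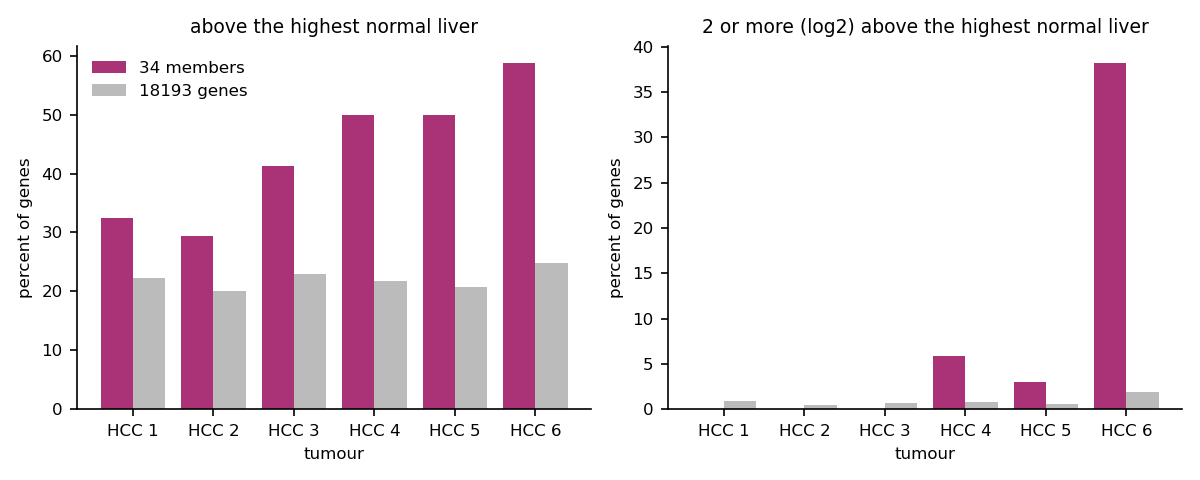
Share of the 34 members (purple) and of all 18193 genes (grey), in percent, that lie above the highest normal liver in each of 6 HCC (left) and 2 or more above it on the log2 scale (right). HCC 6 has 20 of 34 members above the highest normal liver and 13 of them by at least 2, while HCC 1, HCC 2 and HCC 3 have none of the latter.

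Whether the tumours varied more among themselves than the normal livers did was tested by limma on absolute deviations from the group mean. Of 34 members 0 passed, against 0.962% of all genes, and 8 had an unadjusted p under 0.05 (15.8% of all genes), Ccl7, Ccl9, Ccl11, Ccl12, Cxcl11, Cxcl12, Cxcl13 and Cxcl14. With deviations from the group median 6 had such an unadjusted p and again 0 passed. No share over all genes is at hand to set beside these 6. In all 8 the tumours were the more variable group, with a ratio of SDs from 2.29 for Ccl11 to 4.78 for Ccl9. The SD was larger among HCC in 26 of 34 members (76.5%) and in 64.7% of all genes. Without HCC 3 the test called 1 member, Cxcl14 (adjusted p = 0.0175).

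The mean levels of markers of several cells that make or follow chemokines were high in HCC 6 as well, though not every marker was. Trem2, Lrat, Mpo and Cd4, from 4 such lists, read 5.42, 8.44, 6.67 and 4.76 in HCC 6. Their normal means were higher, at 5.95, 9.47, 7.30 and 5.17. The mean log2 level of 10 markers of monocytes and recruited macrophages was 10.68 in HCC 6, 7.19 to 8.15 in normal livers and 7.73 to 9.16 in HCC 1 to HCC 5. Of these 10, 2 were called higher and 0 lower, the co-receptor Cd14 by 3.21 ± 0.37 (SE, limma adjusted p = 0.000227) and the integrin Itgax by 2.01 ± 0.53 (adjusted p = 0.0241). The summed intensity of the list ran from 4312 to 8744 in normal livers and 4775 to 42800 in tumours, highest in HCC 6. No marker of this list or of the stellate cell list had both group means in the range of absent transcripts, but Chil3 had its normal mean there, at 4.74. For 9 markers of stellate cells and fibroblasts the mean was 12.09 in HCC 6, 9.19 to 9.97 in normal livers and 8.07 to 9.93 in HCC 1 to HCC 5. There 1 was called higher, the collagen Col1a1 by 3.27 ± 0.96 (adjusted p = 0.0408), and 2 lower, the retinol enzyme Lrat at -2.52 ± 0.60 (adjusted p = 0.015) and the proteoglycan decorin (Dcn) at -2.07 ± 0.63 (adjusted p = 0.0463). The summed intensity of the list ran from 11890 to 17050 in normal livers and 9815 to 77180 in tumours, highest in HCC 6. The part of these cells in the chemokine values of HCC 6 was not tested.

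The mean of 7 neutrophil markers was 8.47 in HCC 6, 6.10 to 7.24 in normal livers and 6.13 to 7.47 in HCC 1 to HCC 5, and 0 of 7 passed limma's test. The smallest p was that of the calcium-binding protein S100a9 at 0.97 ± 0.44 (SE, adjusted p = 0.169), and Camp had both group means within the range of absent Y-linked transcripts. The summed intensity of the list ran from 469 to 1187 in normal livers and 585 to 4787 in tumours. Their mean exceeded the normal range in HCC 3, HCC 4 and HCC 6 and lay within it in HCC 1, HCC 2 and HCC 5, all of which had Cxcl1 above every normal liver. T and NK cell markers had means of 7.17 in HCC 6, 5.47 to 6.27 in normal livers and 5.80 to 6.72 in HCC 1 to HCC 5. Of 11, 0 passed, the smallest p being that of the granule protein Nkg7 at 0.77 ± 0.29 (adjusted p = 0.0935), and Cd4 and Ncr1 had both group means in the range of absent transcripts. The summed intensity of the list ran from 377 to 778 in normal livers and 564 to 1736 in tumours, highest in HCC 6. The part of neutrophils and of T and NK cells in the differences of Cxcl1, Cxcl9, Cxcl10 and Ccl5 was not tested. Ifng, the inducer of Cxcl9 and Cxcl10, had means of 4.36 (normal) and 4.82 (HCC), both in that range, and differed by 0.46 ± 0.29 (adjusted p = 0.328).

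Of 7 Kupffer cell markers 3 fell and 0 rose, Clec4f at -2.36 ± 0.57, Timd4 at -2.11 ± 0.42 and Folr2 at -1.06 ± 0.30 (SE, limma adjusted p = 0.0167, 0.00609 and 0.0316). The mean of the list was 8.58 to 9.82 in normal livers and 7.05 to 9.39 in HCC. The summed intensity of the list ran from 4822 to 12610 in normal livers and 1666 to 13030 in tumours. Timd4 and Marco had their HCC means, 5.18 and 5.35, in the range of absent transcripts. Of 9 endothelial markers 2 were lower, the sinusoidal Clec4g and Stab2, at -2.13 ± 0.53 and -1.11 ± 0.27 (adjusted p = 0.0184 and 0.0175), with list means of 8.51 to 9.47 in normal livers and 7.83 to 9.44 in HCC. The summed intensity of the list ran from 5045 to 8558 in normal livers and 2132 to 6974 in tumours, and no marker had a group mean in that range. Both Kupffer cell and endothelial means were lowest in HCC 1, which also had the lowest Cxcl12. HCC 1 was also the lowest tumour for the lists of stellate cells and fibroblasts, B and plasma cells, dendritic cells and hepatocytes. In HCC 6 the Kupffer cell mean was 7.60 and the endothelial mean 8.78, with Cxcl12 at 11.64. The part of any of these cells in the difference of Cxcl12 was not tested. Of 7 B and plasma cell markers 0 passed, with Ighm at -2.44 ± 0.81 (adjusted p = 0.0634), and list means ran from 7.60 to 8.56 in normal livers and 6.92 to 8.34 in HCC. Of 7 dendritic cell markers Itgae was lower, at -0.63 ± 0.15 (adjusted p = 0.0146), and the list means were 7.03 to 7.29 in normal livers and 6.73 to 7.51 in HCC. Among 6 cholangiocyte markers 0 passed (Cftr at 0.74 ± 0.39, adjusted p = 0.237; means 6.08 to 6.68 in normal livers and 5.62 to 7.35 in HCC), and among 9 hepatocyte markers 2 were lower, Tat at -1.14 ± 0.33 and Hpd at -0.86 ± 0.22 (adjusted p = 0.0369 and 0.0194).

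**Figure D5:**
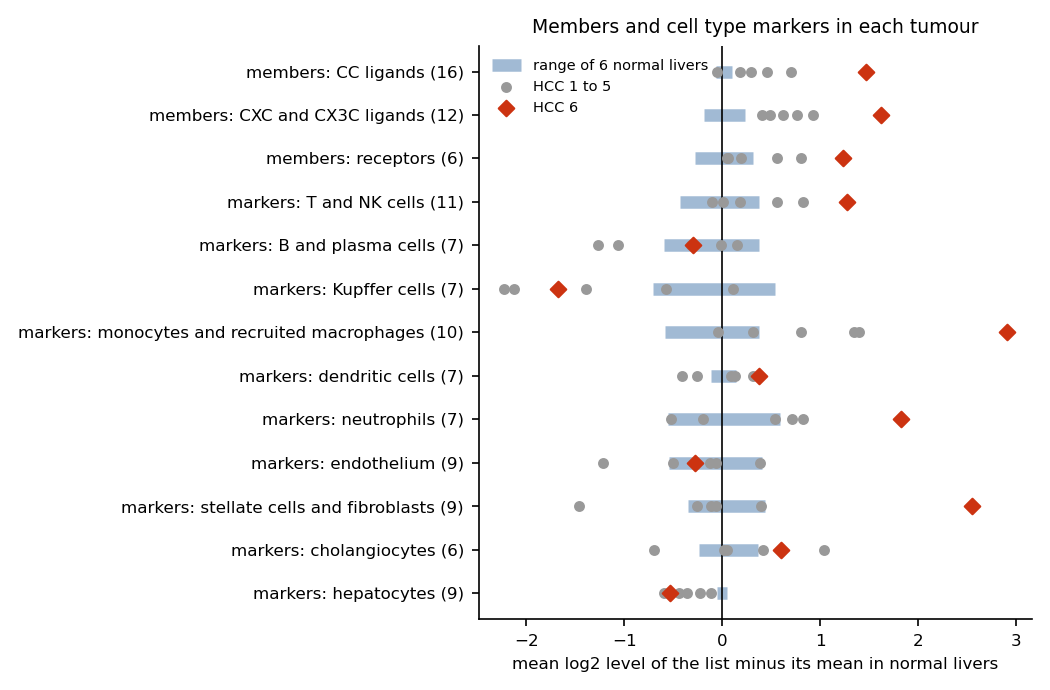
Mean log2 level of each list minus its mean in normal livers, for the members by class and for markers of 10 cell types, with the number of genes in brackets; blue bars span the 6 normal livers, grey points are HCC 1 to HCC 5 and red diamonds HCC 6. HCC 6 lies beyond all other arrays for the 3 classes of members and for markers of monocytes and macrophages, stellate cells and fibroblasts, neutrophils, T and NK cells and, by a small margin, dendritic cells. Of the dendritic cell markers, Fscn1 read 12.22 in HCC 6, against at most 11.20 in the other tumours and 9.19 in normal livers. The other dendritic cell markers in HCC 6 lay below their highest normal liver.

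The remaining genes of the chemokine system were read from lists. Of 8 other ligands 2 rose and 1 fell. The platelet chemokine Ppbp rose by 1.26 ± 0.38 and chemerin (Rarres2), a chemoattractant that the liver makes in bulk, by 0.54 ± 0.13 (SE, limma adjusted p = 0.0452 and 0.0137). Ccl27a, a skin-type ligand of Ccr10, fell by 0.95 (adjusted p = 0.00166), a value that is uncertain because that locus holds near-identical copies. Of 11 other receptors and 5 atypical or decoy receptors 0 passed, and Cx3cr1 at 1.21 ± 0.43 and Ccrl2 at 0.90 ± 0.35 had the smallest p in each (adjusted p = 0.0837 and 0.104). The receptor of Ccl2 on monocytes, Ccr2, differed by 1.10 ± 0.43 (adjusted p = 0.112). Of 15 signal transducers Rgs16, which shuts off G proteins behind chemokine receptors, rose by 2.81 ± 0.67 (adjusted p = 0.0156) and the others did not pass.

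Of 14 genes of the NF-kB pathway and of inflammatory cytokines that induce chemokines, 5 rose and 0 fell, against 6.48% and 7.24% of all genes. The largest were the NF-kB subunit Relb at 1.65 ± 0.28, the adhesion molecule Icam1 at 1.44 ± 0.25 and the NF-kB cofactor Nfkbiz at 1.31 ± 0.21 (SE, limma adjusted p = 0.00249, 0.00288 and 0.00175). In each of these 3 all 6 HCC lay above all normal livers. The NF-kB subunits Rela, Rel and Nfkb2 did not pass, at 0.13 ± 0.13, 0.079 ± 0.23 and -0.38 ± 0.24 (SE, limma adjusted p = 0.557, 0.862 and 0.32). The cytokines themselves did not pass, with Tnf at -0.12 ± 0.50, Il1b at -0.37 ± 0.20 and Il6 at -0.21 ± 0.35 (adjusted p from 0.265 to 0.911). Among 11 genes of the interferon-gamma response the receptor chain Ifngr1 rose by 1.53 ± 0.16 (adjusted p = 0.000101, all 6 HCC above all normal livers) and 10 did not pass. Of 12 molecules that cleave or present chemokines 3 rose, the metalloproteases Mmp12 by 2.86 ± 0.86, Mmp14 by 1.18 ± 0.29 and Adam10 by 0.65 ± 0.16 (adjusted p = 0.0442, 0.0187 and 0.0166). Dpp4, the peptidase that inactivates Cxcl10 and Cxcl12, differed by -0.93 ± 0.33 (adjusted p = 0.0861).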

How the data were processed

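RNA of 6 HCC and 6 normal livers was hybridised to single-colour Affymetrix arrays, with biotin label after a one-cycle synthesis of cDNA, per the labels. The intensity values, as deposited by the authors, were linear signals of 45101 probe sets with a shared 2% trimmed mean. How probes were summarised was not stated in the labels or file. Intensities were set to log2(intensity + 16) and quantile normalized. Of 45037 probe sets outside 64 controls, GEO's platform annotation gave 1 gene to 34945, several to 932 and none to 9160. Each of 18193 genes was read from its brightest probe set. The groups were set against each other with limma 3.58.1 in R 4.3.3 (lmFit, eBayes; two-sided), adjusting p by Benjamini-Hochberg over all genes, or over all probe sets where named. Spread was compared by the same fit on absolute deviations. Both fits were tested on simulated data. The number of arrays limits the precision. Samples of the same number had deviations correlated from -0.0147 to 0.0778, and no pairing was assumed. Of 180 list entries outside the members 162 were measured. By rule, values are given in every tumour for members past a test or with a tumour 2 or more outside the normal range; each list is represented by up to 3 genes past the test with the largest difference, or by the one with the smallest p. Ackr3, Ccr2, Ifng, Tnf, Il1b, Il6, Dpp4, Trem2, Mpo and Cd4, other members with values and the TATA box were added after values were seen. So were Fscn1, Rela, Rel and Nfkb2. The members and lists were chosen with earlier results of these data known. Alternatives were other scalings, pseudocounts of 1 and 64, averaged probe sets, a dim-gene filter, other variance models and weights, a replicate block, a Y-linked covariate, and 1 array left out. Figures used matplotlib 3.10.9.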

Additional observations from a re-analysis of the deposited data

Results flagged for a closer look

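In 8 of 68 groups of 6 values 1 liver lay farther from the others than chance allows in about 1 of 20 groups. That rate assumes normally distributed values, which levels near the floor of 4 need not be. No share over all genes is at hand to set beside these 8. HCC 6 had the highest Ccr1 of the tumours at 9.39, with 7.14 next, and the highest Cxcl2 at 7.90, with 6.45 next. HCC 2 had the lowest Cx3cl1 at 4.94, with 7.51 next. Normal 2 had the highest Cxcl1 of the normal livers at 11.27, with 9.37 next. The lowest normal livers stood apart in Ccl2 (normal 3 at 5.66, next 6.80), Ccl7 (normal 2 at 4.75, next 5.46), Ccr1 (normal 1 at 4.98, next 6.20) and Cxcr4 (normal 5 at 4.37, next 5.81). The lowest Cx3cl1, Ccl7, Ccr1 and Cxcr4 values lay in the range in which Y-linked genes read where they were absent.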

How the results depend on the processing

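The number of members called was 6 with the main settings, 4 to 9 with 1 array left out and 6 to 8 under the other settings. Over all genes 2497 were called, 1817 to 2666 with 1 array left out and 1701 to 2928 otherwise. Cxcl1, Cxcl9, Cxcl10 and Cxcl12 passed in every alternative run. Ccl5 passed in all but 3 of those that left out an array, and Ccl28 was lost there in 4, with the mean of its probe sets and with the replicate block (adjusted p = 0.0501); it was not among the genes kept by the filter on dim genes. With the replicate number as a block 1701 genes and 6 members were called, and only numbers 1 and 6 of either group correlated best with their own number. Ccl8 also passed with a pseudocount of 64 and with array weights, Cxcr4 with a pseudocount of 64, the trended and robust model and the block, and Cxcl14 with the filter and the Y-linked covariate. Members with a different spread numbered 0 to 1 with 1 array left out, the 1 without HCC 3, and 0 under the other settings tried. With the deposited scaling 56.3% of called genes were higher, against 47.2%. HCC 6 held the highest of 12 values in 15 members with median centring and in 17 or 18 with the deposited scaling, other pseudocounts or the mean of probe sets. With a pseudocount of 64 it lay 2 or more above the highest normal liver in 8 members, again without a share over all genes. Signs turned only in members far from the threshold: Cxcl13 at 0.096 with the deposited scaling, 0.028 with median centring and 0.11 with the mean of probe sets, Cxcr6 at 0.040 and 0.33 with the first and last of these, and Ccr7 at -0.015 with median centring. With 1 array left out the sign turned within -0.11 to 0.20 for Ccl4, -0.12 to 0.47 for Ccl9, -0.23 to 0.16 for Cxcl13, -0.34 to 0.085 for Cxcl15, -0.21 to 0.22 for Ccr7 and -0.18 to 0.029 for Cxcr6. The causes were not tested. Quantile normalization without control probe sets, chosen after seeing the data, called the same 6 members. No detection calls were used, so dim members have no stated limit of detection.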

Other observations

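In HCC 6 further genes tied to chemokines, chosen after their values were seen, lay above all normal livers and all other tumours. The neutrophil attractant Cxcl3 was at 8.71, against at most 6.69 in the other tumours and 5.83 in normal liver. The platelet chemokine Pf4 was at 11.11, against 9.35 and 8.66. The checkpoint ligand Cd274 was at 8.61, against 7.06 and 6.54. None of the 3 passed the test between groups (limma adjusted p = 0.139, 0.0852 and 0.104).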
